A study of Mus musculus with 24 samples.

Results

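The effect of a caNrf2 transgene was measured in the colon wall of mice treated with dextran sulfate sodium (DSS), by comparing 4 transgenic with 4 control libraries, 8 of the 24 libraries of the series. The members were taken by their titles, and all 16074 genes with enough counts were compared. The control libraries carry the genotype VilCre, and the transgenic ones VilCre-CMVcaNrf2. All carry the strain label C57Bl/6 and the treatment label Dextran Sulfate Sodium. VilCre is a Cre recombinase under the villin promoter, which is active in gut epithelium, and caNrf2 is a constitutively active form of the transcription factor NRF2, so the transgene is directed to the epithelium while the RNA measured here came from the whole wall near the rectum, with muscle, stroma and immune cells. DSS is a chemical given to rodents to injure the colon lining. Its dose and duration, the age of the mice and the time of sampling are not given by the labels used here. The labels also do not call the libraries of a group separate animals, so a p-value here sets a difference against the spread of these libraries, which may in part be technical. A further 8 untreated colon wall libraries, 4 VilCre and 4 VilCre-CMVcaNrf2, shared the fit and served for a comparison without DSS, and 8 libraries of epithelial cells gave levels to set beside those of the wall.

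NRF2, which the gene Nfe2l2 encodes, is held at a low level by KEAP1, which marks it for destruction by the proteasome. Oxidants and reactive chemicals disable KEAP1, and NRF2 then enters the nucleus, pairs with a small MAF protein and binds antioxidant response elements of genes for glutathione synthesis, quinone reduction, conjugation of toxic compounds and their export. In the intestine this programme protects the epithelium against oxidants from food, microbes and inflammatory cells.

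Total counts per library ran from 20232309 to 44483248 in the control and from 27500311 to 43318911 in the transgenic DSS group. All 8 libraries held epithelial and muscle markers: Epcam, an adhesion molecule of epithelium, ran from 891.8 to 1523 CPM (counts per 1000000 of the scaled library total), and the 13 smooth muscle and pacemaker cell markers together from 10680 to 42270 CPM. Some libraries stood apart. Control replicate 3 held 11150 CPM of 6 red blood cell genes, against 85.7 to 2482 CPM in the other 7. Control replicate 4 held 565.4 CPM of Fosb, an immediate early gene, against at most 54.4 CPM in the others. Transgenic replicate 1 had the lowest pan-epithelial sum of the 8 (11530 CPM) and the highest sum of 24 cell cycle and DNA replication genes (984.1 CPM). Outside this pair of groups, the library labelled untreated transgenic replicate 2 lay in or near the control range for NRF2 target genes, and it enters the DSS comparison through the shared estimate of spread.

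In DSS-treated colon wall, 15 genes were higher in the transgenic group and 0 were lower in edgeR's quasi-likelihood test (adjusted p below 0.05), which is 0.0933% of the 16074 genes tested. They include Gclc, whose enzyme sets the pace of glutathione synthesis, the quinone reductase gene Nqo1, the carbonyl reductase gene Cbr3, a row of 4 neighbouring alpha class glutathione S-transferase genes and the efflux pump gene Abcc4. Fitted log2 fold changes of the 15 ran from 1.93 to 7.85, with a median of 3.92. All 4 transgenic libraries lay above all 4 controls for each of the 15, against 0.765% of all genes. The 15 were called from these same libraries, so this lack of overlap describes them and adds no support. In whole wall, a change in the number of cells of a type and a change in the RNA per cell cannot be told apart. No inflammation, stroma, stem cell or proliferation list had a member past the threshold. The cytokine gene Il1f9 and H60c, a gene for a ligand of an immune receptor, are among the 15 but on none of these lists.

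The binding letters of NRF2 were looked for in the promoters of these genes, since the 15 moved together. The search used RefSeq promoters of build GRCm38.p6, 250 bases before to 50 after each start, for the core of the antioxidant response element, TGACNNNGC, and for the AP-1 core TGANTCA, on both strands. Promoters were matched for 13 of the 15 genes, and 3 of the 13 (23.1%) held the antioxidant response core: Acox2, Abcc4 and H60c. It stood in 1901 of 11271 tested genes with a promoter (16.9%), in 34 of 152 members of NRF2-related lists (22.4%) and in 2 of the 8 lower genes named further on that have a promoter. The AP-1 core was in 3 of the 13 (Acox2, Adh7 and Serpinb11, 23.1%) against 6.98% of all promoters. It stood in 18 of 152 members of NRF2-related lists (11.8%) and in 0 of the 8 lower genes. The 4 stretches with the antioxidant response core are shown because they are those near the starts of called genes, each cut off at the base before the start, written 5′ to 3′ along the gene's strand with the 9 core bases in capitals (where the core lies on the other strand, the capitals are its reverse complement):
Acox2, chr14:8259020-8259052, minus strand: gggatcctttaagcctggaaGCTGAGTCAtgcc
H60c, chr10:3267836-3267884, minus strand: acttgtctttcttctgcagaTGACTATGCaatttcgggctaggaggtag
Abcc4 first start, chr14:118706220-118706264, minus strand: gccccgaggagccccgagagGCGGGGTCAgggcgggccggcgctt
Abcc4 second start, chr14:118676932-118676974, minus strand: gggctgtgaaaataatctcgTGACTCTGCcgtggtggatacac
Read along its own strand, the core in Acox2 is TGACTCAGC, which overlaps the AP-1 letters, and its capitals begin 13 bases before the start. In H60c it is TGACTATGC, and in Abcc4 TGACCCCGC at the first and TGACTCTGC at the second start. A match of letters is a description of these windows, and no match says only that the letters are not in the window.

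Nfe2l2 itself was read first as a check of the labels (chromosome 2, 75675519 to 75704641, minus strand, positions as in the deposited files on mm10). CPM values were 147.9, 125.8, 110.6 and 167.9 in control replicates 1 to 4 and 185.6, 166.4, 284.7 and 211.2 in transgenic replicates 1 to 4. Transgenic replicate 2 lay just below control replicate 4, so the groups overlapped, and the other 3 transgenic libraries lay above all controls. The log2 fold change was 0.62 ± 0.19 (SE; 95% interval 0.21 to 1.02) with an unadjusted p of 0.00488 and an adjusted p of 0.957 in edgeR. The labels do not say whether transgene transcripts add to the Nfe2l2 count.

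In glutathione synthesis, Gclc passed (chromosome 9, 77754535 to 77794489, plus strand). Its product joins glutamate and cysteine in the first step. Gclc was at 72.1, 70.4, 44.6 and 77.2 CPM in control replicates 1 to 4 and at 314.7, 529.2, 630.4 and 847.0 CPM in transgenic replicates 1 to 4. Even the lowest transgenic library lay far above the highest control, and Gclc rose by 3.13 ± 0.45 on the log2 scale (SE; adjusted p = 0.0238, edgeR). Its modifier subunit Gclm was at 40.2, 46.3, 36.4 and 39.6 CPM in controls and 82.8, 124.4, 190.6 and 228.8 CPM in transgenic libraries, without overlap, and had a log2 fold change of 1.95 ± 0.38 that did not pass (adjusted p = 0.0804, edgeR). Slc7a11, the cystine importer that supplies the cysteine, also did not pass: it was at 1.41, 5.48, 2.62 and 5.55 against 23.4, 22.7, 20.7 and 29.9 CPM, with a log2 fold change of 2.66 ± 0.52 (adjusted p = 0.0804, edgeR). Gsr, which recycles oxidised glutathione, was at 76.6, 73.9, 52.1 and 74.4 against 107.5, 122.6, 178.1 and 170.0 CPM (log2 fold change 1.06 ± 0.21, adjusted p = 0.0807, edgeR). In the list of 12 genes of glutathione synthesis and cystine import, 1 passed, 5 had groups that did not overlap, all higher, and the median log2 fold change was 0.50, where the median over all genes was -0.02. Groups did not overlap for 0.765% of all genes in the higher and 0.908% in the lower direction.

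Alpha class glutathione S-transferases, which join glutathione to reactive compounds, rose together at a stretch of chromosome 9. Gsta1 (chromosome 9, 78230669 to 78242683, plus strand) was at 14.7, 11.9, 9.61 and 21.1 CPM in controls and 53.1, 122.6, 264.7 and 435.1 CPM in transgenic libraries. Gm3776 (chromosome 9, 78257129 to 78269166, plus strand) was at 5.82, 5.16, 4.18 and 8.56 against 37.4, 93.98, 199.5 and 314.0 CPM, and Gm10639 (chromosome 9, 78289928 to 78305525, plus strand) at 0.368, 0.273, 0.453 and 0.736 against 2.19, 4.84, 8.61 and 12.5 CPM. Gsta2 (chromosome 9, 78331020 to 78347145, minus strand) was nearly silent in controls, with 2, 3, 1 and 2 counts, and had 79, 188, 676 and 755 counts in the transgenic libraries. All 4 genes had the same order of transgenic libraries, from replicate 1 as the lowest to replicate 4 as the highest. Their log2 fold changes were 3.93 ± 0.68 for Gsta1, 4.75 ± 0.72 for Gm3776, 3.92 ± 0.63 for Gm10639 and 7.85 ± 1.42 for Gsta2 (SE; edgeR adjusted p = 0.0332, 0.0271, 0.0271 and 0.0435). Their RefSeq transcripts are 96.7% to 99.5% identical, with 870 of 874 aligned bases shared by Gsta1 and Gm3776, so reads could be split among them, and the 4 changes are not 4 independent measurements.

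Other transferases and peroxidases did not pass. Gsta3, a relative on chromosome 1, was at 12.5, 0.795, 0.956 and 1.34 CPM in controls, where replicate 1 stood far above the other 3, and at 16.4, 36.6, 78.5 and 95.9 CPM in transgenic libraries (log2 fold change 3.86 ± 0.79, adjusted p = 0.0911 in edgeR). Without control replicate 1 the Gsta3 log2 fold change was 5.77 with an adjusted p of 0.00303 in edgeR. Leaving out any other DSS library gave 3.51 to 4.16, with adjusted p from 0.0363 (without transgenic replicate 1) to 0.346 in edgeR. With replicates 1 to 3 only it was 3.19 (adjusted p = 0.778, edgeR). Gsto1, an omega class transferase, was at 369.2, 303.8, 317.2 and 393.8 against 470.1, 699.5, 979.7 and 1186 CPM (log2 fold change 1.27 ± 0.24, adjusted p = 0.0573, edgeR). The groups overlapped for Gsta4 and for Gstm1, a mu class transferase, with log2 fold changes of 0.86 ± 0.26 and 1.36 ± 0.39. Of 27 transferases and peroxidases, 24 were fitted above 0, 4 had all transgenic libraries above all controls, 2 passed (Gsta1 and Gsta2), and the median was 0.36.

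Quinone and carbonyl reductases hold the best-known NRF2 targets. Nqo1 (chromosome 8, 107388225 to 107403205, minus strand), which reduces quinones without forming radicals, was at 11.5, 6.54, 8.91 and 6.47 CPM in control and 27.03, 50.3, 98.3 and 122.6 CPM in transgenic replicates 1 to 4. It rose by 3.16 ± 0.52 on the log2 scale (SE; adjusted p = 0.0271, edgeR). Cbr3 (chromosome 16, 93683219 to 93690991, plus strand), a carbonyl reductase, held a narrow range of 7.42, 8.11, 6.19 and 8.34 CPM in controls and spread from 29.2 to 217.8 CPM in transgenic libraries, with 29.2, 60.6, 146.5 and 217.8 CPM in replicates 1 to 4. Cbr3 rose by 3.91 ± 0.64 (adjusted p = 0.0271, edgeR). Its relative Cbr1 was at 109.1, 119.5, 104.8 and 110.2 against 101.9, 202.9, 357.2 and 484.6 CPM. Transgenic replicate 1 lay below all controls, and Cbr1, with a log2 fold change of 1.37 ± 0.35, did not pass (adjusted p = 0.499, edgeR). Ptgr1, a reductase of prostaglandin and aldehyde products, did not overlap by a small margin (23.5, 15.1, 20.98 and 18.3 against 23.5, 33.8, 63.96 and 96.9 CPM). Its highest control, replicate 1, was at 23.47 CPM and its lowest transgenic library at 23.50 CPM. The list of 15 reductases had 13 members fitted above 0, 3 without overlap and 2 past the threshold, with a median of 0.62.

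Export pumps and drug-metabolising enzymes followed. Abcc4 (chromosome 14, 118482692 to 118706219, minus strand), which exports cyclic nucleotides, prostaglandins and drug conjugates, was at 34.01, 31.4, 29.7 and 30.1 CPM in controls and 72.5, 115.8, 148.9 and 139.0 CPM in transgenic libraries. Its controls were close together, from 29.7 to 34.01 CPM, and the rise of 1.93 ± 0.33 on the log2 scale passed (adjusted p = 0.0307, edgeR). Abcc2, a pump for glutathione conjugates, was at 3.74, 5.11, 8.20 and 4.10 against 25.1, 46.4, 50.01 and 67.7 CPM and fell just short (log2 fold change 3.17 ± 0.59, adjusted p = 0.0514, edgeR), and Abcc1 had 62.02, 67.9, 64.05 and 68.02 against 96.1, 106.6, 117.1 and 123.8 CPM (adjusted p = 0.0911, edgeR). Of 10 efflux pumps, 3 did not overlap, 1 passed, and the median was 0.41. Adh7 (chromosome 3, 138217773 to 138232042, plus strand), an alcohol dehydrogenase that also acts on retinol, rose by 4.10 ± 0.65 (adjusted p = 0.0271, edgeR), from 0.613, 0.750, 0.755 and 0.401 CPM in controls to 2.19, 9.79, 18.2 and 12.8 CPM in transgenic libraries. Its transgenic replicate 1 was well below the other 3. Ces1f, a carboxylesterase, did not overlap either (9.96, 1.41, 1.31 and 9.81 against 13.2, 33.01, 77.6 and 95.2 CPM) and did not pass. In the list of 36 cytochrome P450, glucuronosyltransferase, sulfotransferase, carboxylesterase and aldehyde dehydrogenase genes, which also holds Adh7, 1 passed, 5 did not overlap, 20 were fitted above 0, and the median was 0.10.

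The remaining 6 called genes are not classical detoxification genes. Acox2 (chromosome 14, 8225511 to 8259019, minus strand), a peroxisomal oxidase of branched fatty acids and bile acid precursors, had the smallest adjusted p of all genes (edgeR, 0.0159). Controls held 0.153, 0.250, 0.101 and 0.335 CPM and transgenic libraries 1.34, 2.02, 3.77 and 3.46 CPM, a rise of 3.55 ± 0.47 on the log2 scale. Il1f9 (chromosome 2, 24186476 to 24193567, plus strand), which encodes the epithelial cytokine IL-36 gamma, rose by 3.54 ± 0.61 from 0.460, 0.863, 0.805 and 0.491 to 5.74, 6.70, 8.56 and 9.30 CPM (adjusted p = 0.0326, edgeR). The 4 transgenic values of Il1f9 lay closer together than those of the transferases. H60c (chromosome 10, 3256208 to 3267771, minus strand), which encodes a ligand of the NKG2D receptor of natural killer and T cells, was at 0.674, 0.0682, 0.252 and 0.691 against 2.88, 4.54, 7.95 and 8.06 CPM (log2 fold change 3.77 ± 0.63, adjusted p = 0.0307, edgeR).

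Of the 15, 4 had 10 or fewer counts over all 4 controls together: Gsta2, described with its class, Slc5a4b, Serpinb11 and Sprr2g. Slc5a4b (chromosome 10, 76058621 to 76111018, minus strand), of the sodium-glucose transporter family, had 3, 4, 0 and 3 counts in controls and 48, 79, 106 and 96 in transgenic libraries, and rose by 5.13 ± 0.90 (adjusted p = 0.0332, edgeR). Serpinb11 (chromosome 1, 107362314 to 107380475, plus strand), a member of the serpin family, had 2 counts over all controls and 18, 15, 22 and 19 counts in the transgenic libraries. Per total count this was 37.5 times higher in the transgenic group, with an exact 95% interval of 10.0 to 315.0 that covers counting error only. Sprr2g (chromosome 3, 92373915 to 92375229, plus strand), a cornified envelope gene of squamous epithelium, had 1 count over all controls and 26, 28, 13 and 26 counts in the transgenic libraries, a ratio of 94.2 with an interval of 16.5 to 3760. Both passed in edgeR (adjusted p = 0.0271 for Serpinb11 and 0.0332 for Sprr2g). In a list of 10 tested keratin and cornified envelope genes of squamous epithelium that does not hold Sprr2g, 0 passed and 1 did not overlap, Krt6a, at 0, 0.159, 0.201 and 0.0223 against 0.830, 0.398, 0.438 and 1.152 CPM (median of the 10, 0.07).

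Per length and depth, on the scale of the deposited TPM values, which are divided by transcript length, the 15 genes covered a wide range of levels. Gsta1 had the highest mean level of the 15 in the transgenic group, 488.8 TPM against 35.2 TPM in controls, followed by Gm3776 (354.6 against 14.3 TPM), Gclc (314.1 against 37.3 TPM) and Cbr3 (181.8 against 13.1 TPM). Gsta2, with the largest fitted change of the 15, reached 30.1 TPM. Serpinb11 was the lowest, at 0.630 TPM. Nfe2l2 stood at 167.1 TPM in transgenic and 109.1 TPM in control wall.

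**Figure D1:**
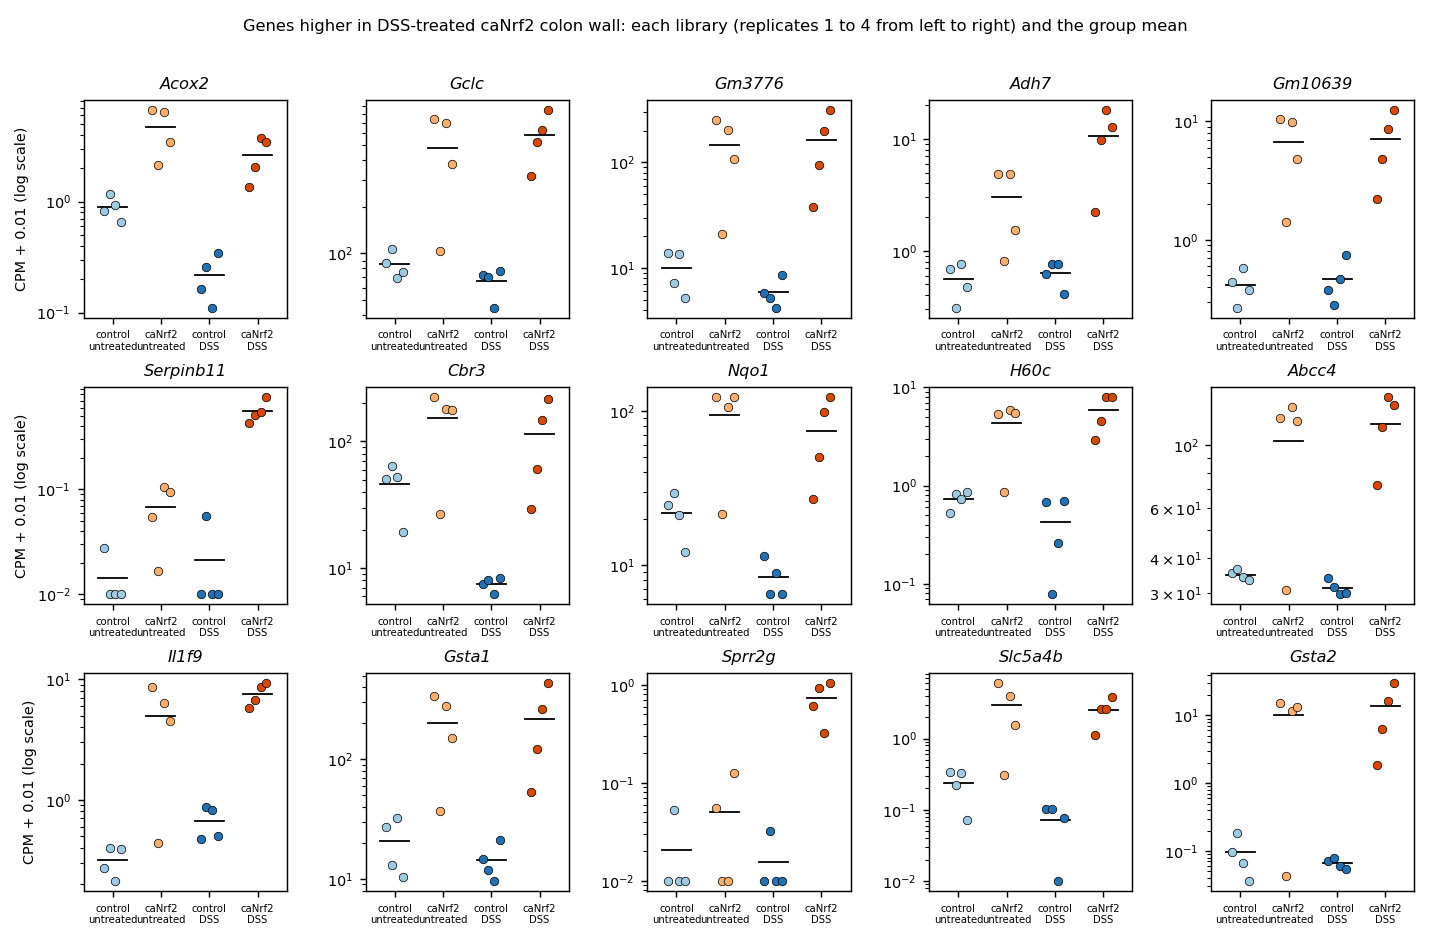
CPM of the 15 genes past the threshold with DSS, on a log axis after adding 0.01, for each library of the 4 colon wall groups (points, replicates 1 to 4 from left to right) with the group mean (line). With DSS every transgenic point lies above every control point, and transgenic replicate 1 is the lowest of its group in 14 of the 15 panels, while in untreated wall transgenic replicate 2 lies near the controls in most panels.

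The 4 transgenic DSS libraries were ordered nearly alike over the 15 genes. Replicate 1 was the lowest in 14 and replicate 3, for Sprr2g, in 1, and the highest was replicate 4 in 12 and replicate 3 in 3. Measures of tissue make-up also differed among these libraries. The summed level of 14 pan-epithelial markers was 11530, 15850, 25060 and 22470 CPM in transgenic replicates 1 to 4, against 17260 to 18100 CPM in controls. Neutrophil markers (15 genes) summed to 105.3, 78.5, 42.9 and 45.4 CPM in the transgenic libraries against 37.4 to 108.7 CPM in controls, and 24 cell cycle and DNA replication genes to 984.1, 356.7, 325.6 and 256.6 CPM against 273.4 to 668.8 CPM. The pan-epithelial sums of the transgenic group lay on both sides of the narrow control range, 2 libraries below and 2 above it, and of the 14 markers 0 passed (8 fitted above 0, median 0.02). The part of the epithelial share in the called differences, and in the spread among transgenic libraries, was not tested.

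**Figure D2:**
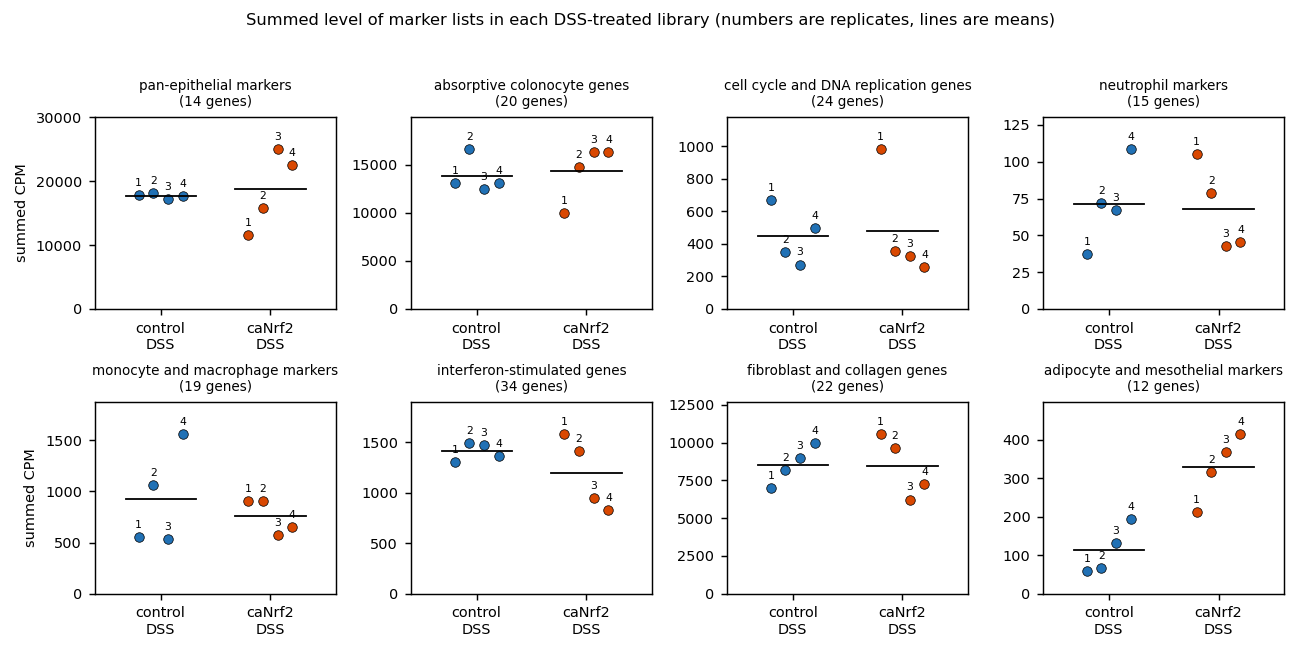
Summed CPM of 8 marker lists in each DSS-treated library (points with the replicate number; lines are group means; every axis starts at 0). The transgenic libraries spread around the controls for epithelial, cell cycle, immune and stromal lists, and all 4 lie above the controls for the adipocyte and mesothelial markers.

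The count of 15 shifted when single libraries were left out, while the fitted changes stayed well above 0. Leaving out DSS control replicate 1, 2, 3 or 4 gave 3, 0, 0 and 1 calls, and leaving out transgenic replicate 1, 2, 3 or 4 gave 36, 7, 0 and 0 calls in edgeR. Of the 36 calls without transgenic replicate 1, 34 were higher and the rest lower. Across these 8 fits the log2 fold changes of the 15 genes lay between 1.80 and 8.23. Since the groups did not overlap for these genes, leaving out 1 library could hardly bring a fitted change below 0. The file names of replicate 4 of each wall group begin with another number than those of replicates 1 to 3. With replicates 1 to 3 only, log2 fold changes of the 15 ran from 1.84 to 7.01 and none passed in edgeR (adjusted p from 0.227 to 0.608; 705 genes had an unadjusted p below 0.05), and replicate 4 alone leaves 1 library a group. With a term for that number 11 passed, all among the 15. DESeq2 called 43 genes, 41 higher and 2 lower, with all 15 among them. Voom with quality weights called 0, with fitted changes of the 15 from 1.86 to 6.53. Leaving the untreated transgenic replicate 2 out of the shared fit, an alternative chosen after seeing the data, gave 26 calls, all higher, with the 15 among them.

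Over the 10 NRF2-related lists together, 178 genes were tested, and 7 passed, all higher. In 26 of the 178 all transgenic libraries lay above all controls and in 0 all lay below, and 134 were fitted above 0, with a median of 0.14. Over all genes, 7238 of 16074 were fitted above 0, and 0.0933% passed. The groups did not overlap for 0.765% of all genes in the higher and 0.908% in the lower direction. DESeq2 called 15 more of the higher genes named here, among them Abcc2, Slc7a11, Gclm, Gsto1, Gsr, Gsta3, Blvrb and Mafg. Mafg, a small MAF partner of NRF2, was at 13.2, 11.9, 13.7 and 16.9 CPM in controls and 25.4, 26.8, 28.9 and 28.8 CPM in transgenic libraries (log2 fold change 0.98 ± 0.20, adjusted p = 0.0975, edgeR). It was the only one of 12 regulators and partners of NRF2 without overlap, and the median of the 12 was 0.03.

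Antioxidant and supply branches of the programme were compared in the same way. Of 16 thioredoxin and peroxiredoxin genes, 0 passed in edgeR and 3 did not overlap (median 0.15). These were Srxn1, sulfiredoxin, at 109.9, 173.9, 121.8 and 137.4 against 181.6, 284.2, 370.9 and 448.1 CPM, Txnrd1, thioredoxin reductase, at 214.0, 312.2, 186.0 and 247.7 against 323.9, 356.8, 517.4 and 369.8 CPM, and Prdx1, a peroxiredoxin, at 414.5, 388.9, 380.9 and 427.9 against 440.8, 461.6, 727.6 and 1000 CPM. The margins between groups were small for all 3. Among 11 genes of heme breakdown and iron handling, Blvrb, a biliverdin reductase, was at 18.1, 20.8, 20.1 and 20.4 against 24.6, 48.9, 72.7 and 122.0 CPM (log2 fold change 1.75 ± 0.36, adjusted p = 0.0911, edgeR). Hmox1, heme oxygenase, a common NRF2 target, overlapped, with 10.6, 24.97, 10.6 and 29.9 against 24.4, 20.1, 25.8 and 34.6 CPM and a log2 fold change of 0.46 ± 0.43 (95% interval -0.45 to 1.37). That interval includes both no change and a rise of more than 1 log2 unit.

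NADPH, which these reductases consume, is made by the pentose phosphate pathway and by malic enzyme. Taldo1, transaldolase, was the 1 of 8 such genes without overlap, at 169.0, 170.5, 172.0 and 163.9 against 187.8, 290.9, 429.8 and 546.3 CPM (log2 fold change 1.11 ± 0.24, adjusted p = 0.15, edgeR). G6pdx, the entry enzyme of the pathway, overlapped with a log2 fold change of 0.33 ± 0.20 (95% interval -0.09 to 0.74), as did Pgd (0.87 ± 0.24), Tkt (0.76 ± 0.22) and Me1 (0.39 ± 0.30). The median of the 8 was 0.36, and 0 passed. The 31 proteasome subunits had a median of 0.06, with 28 fitted above 0, 0 without overlap and 0 past the threshold.

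**Figure D3:**
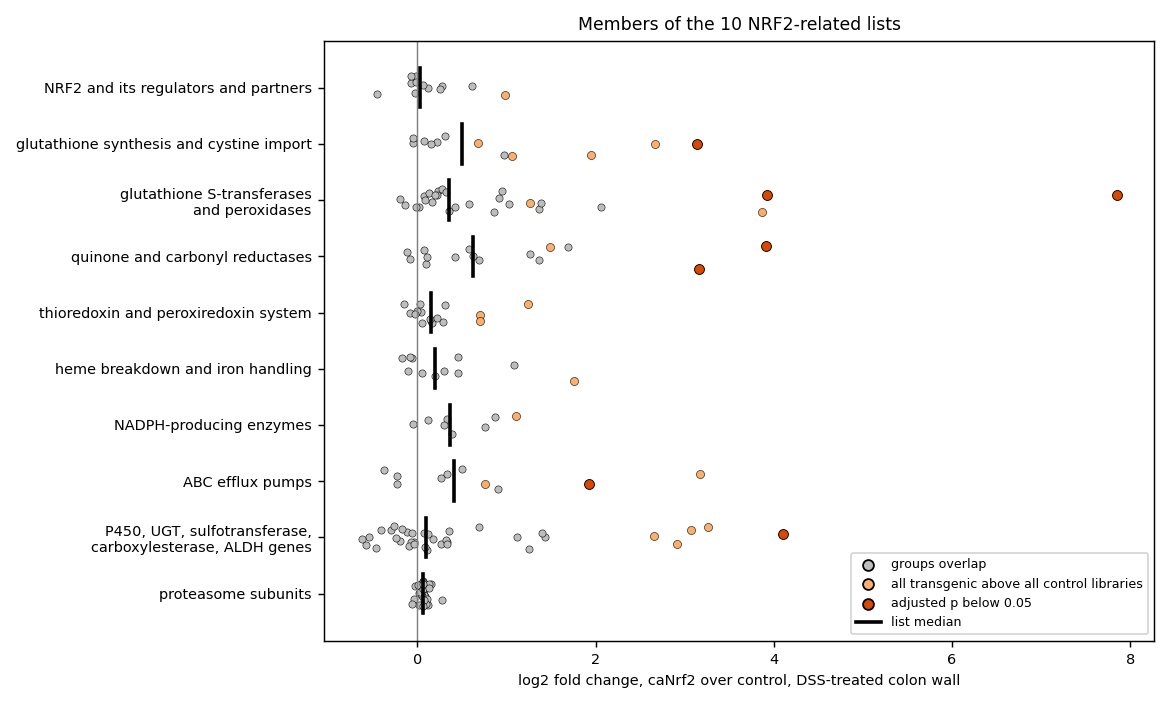
Log2 fold change, transgenic over control with DSS, for every tested member of the 10 NRF2-related lists (points; red past the threshold, orange with all transgenic libraries above all controls, grey with overlap; black bars are list medians). The reductase and glutathione synthesis lists have the highest medians, 0.62 and 0.50, and proteasome subunits sit close to 0.

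In the other direction 0 genes passed in the main edgeR fit. At an unadjusted p below 0.05 in that fit, 222 genes were lower and 185 higher (407 in all, 2.53% of those tested). The smallest adjusted p among lower genes was 0.0912 (edgeR), for Slc17a4. Slc17a4, an organic anion and phosphate transporter of the gut epithelium, was at 41.5, 38.1, 29.5 and 28.5 CPM in controls and 20.2, 13.7, 15.1 and 14.6 CPM in transgenic libraries (log2 fold change -1.11 ± 0.22). Slc34a2, a sodium-phosphate transporter, was at 48.2, 57.2, 46.2 and 62.9 against 16.9, 19.5, 28.9 and 20.9 CPM (-1.32 ± 0.37, adjusted p = 0.779, edgeR). The groups of both transporters were well apart. Slc9a2, a sodium-proton exchanger, was at 178.3, 205.9, 184.5 and 211.2 against 96.8, 149.0, 124.7 and 148.7 CPM. Slc34a2 and Slc9a2 were the 2 of 20 absorptive colonocyte genes with all transgenic libraries below all controls, and the median of the 20 was -0.22, with 7 fitted above 0. Carbonic anhydrases of colonocytes overlapped in both directions, Car4 with -0.57 ± 0.27 and Car1 with 0.70 ± 0.39.

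The other lower genes with the smallest p-values and no overlap were Dio3os, 2210407C18Rik, Hist1h2ac, Neurl1b, 1810030J14Rik, Tmem35, Zfp959, Pot1b, C030034I22Rik and Zfp947. 1810030J14Rik, of unnamed function, was at 1166, 366.1, 344.7 and 449.6 CPM in controls and 99.7, 106.4, 278.9 and 262.4 CPM in transgenic libraries, and control replicate 1 lay far above the others. Dio3os, a noncoding transcript next to the deiodinase gene Dio3, was at 3.19, 4.43, 3.67 and 2.03 against 1.59, 1.86, 0.486 and 1.07 CPM. Reads from Dio3os and from a gene on the other strand could not be told apart, since no label or header states a strand setting. Log2 fold changes of these 10 ran from -1.64 for 1810030J14Rik to -0.47 for Neurl1b. Groups that do not overlap in the lower direction were found for 146 genes, 0.908% of those tested.

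Genes of inflammation, for which DSS serves as a model, were compared next. Il1b, which encodes the cytokine IL-1 beta, was at 4.01, 18.9, 12.2 and 112.9 CPM in controls and 55.1, 14.5, 7.58 and 11.3 CPM in transgenic libraries, with control replicate 4 and transgenic replicate 1 far above the others of their groups. Its log2 fold change was -0.74 ± 0.81 (95% interval -2.45 to 0.97; adjusted p = 0.9999, edgeR), and 0.92 without control replicate 4. Tnf, another cytokine gene, was at 9.96, 19.5, 13.3 and 13.3 against 19.4, 12.5, 18.1 and 11.2 CPM (log2 fold change 0.13 ± 0.32, 95% interval -0.56 to 0.81). S100a9, a calcium-binding protein of neutrophils, was at 2.60, 9.75, 14.5 and 12.6 against 15.4, 11.2, 4.74 and 7.75 CPM (log2 fold change -0.01 ± 0.47, 95% interval -1.01 to 0.99). For each of these genes the groups overlapped, and each interval includes 0. Nos2, inducible nitric oxide synthase, and Lcn2, an antimicrobial siderophore-binding protein, overlapped too, with log2 fold changes of -0.14 ± 0.42 and 0.43 ± 0.57.

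No immune list had a member past the threshold in edgeR. The medians were 0.04 for 15 neutrophil markers, -0.28 for 19 monocyte and macrophage markers, -0.25 for 19 T cell and cytotoxic cell markers, -0.09 for 24 cytokines and their receptors, a list without Il1f9, and -0.22 for 29 chemokines and their receptors. All 11 MHC class II genes were fitted below 0, with a median of -0.20 and none without overlap. Of 34 interferon-stimulated genes, 8 were fitted above 0 (median -0.19). Their summed level was 1298, 1487, 1475 and 1365 CPM in controls and 1583, 1409, 946.4 and 825.9 CPM in transgenic libraries, so that transgenic replicates 3 and 4 were lower than all controls and replicate 1 higher. Ifit1, one of them, was at 11.7, 16.04, 42.4 and 29.6 against 20.9, 16.9, 5.98 and 8.54 CPM. Igj, the joining chain of secreted antibodies, was at 244.2, 461.8, 81.8 and 516.6 against 240.5, 170.9, 99.8 and 83.9 CPM (log2 fold change -1.13 ± 0.46), and the groups overlapped.

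Lists of epithelial renewal and stroma had no gene past the threshold either. Mki67, a proliferation marker, was at 139.5, 32.9, 13.5 and 55.1 CPM in controls and 181.6, 34.3, 27.1 and 10.1 CPM in transgenic libraries, with transgenic replicate 1 far above the other 3. Its log2 fold change was 0.07 ± 0.69 (95% interval -1.38 to 1.52), and -1.34 without that library. Lgr5, a marker of crypt stem cells, was under 1 CPM in all 8 libraries, at 0.368, 0.545, 0.352 and 0.535 against 0.553, 0.697, 0.267 and 0.437 CPM. The list of 17 crypt stem cell and Wnt target genes had a median of 0.08, the 24 cell cycle genes 0.15, and the 17 wound and regeneration-associated epithelial genes 0.11, and 0 of these lists' genes passed or lacked overlap. Fibroblast and collagen genes (22, median -0.02), endothelial markers (13, -0.17) and smooth muscle and pacemaker cell markers (13, -0.15) likewise had none without overlap. Adm, which encodes adrenomedullin, a vasodilator peptide induced by low oxygen, was the 1 of 16 glycolysis and hypoxia genes without overlap, at 7.14, 12.7, 20.6 and 20.4 against 24.6, 30.9, 92.8 and 58.0 CPM (log2 fold change 1.76 ± 0.45, adjusted p = 0.499, edgeR).

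Among the lists outside the NRF2 programme, the adipocyte and mesothelial markers had the median farthest from 0. All 12 were fitted above 0, with a median of 2.08. In 6 of the 12 all transgenic libraries lay above all controls, against 0.765% of all genes, but 0 passed in edgeR (3 at an unadjusted p below 0.05). Adipoq, the adipocyte hormone adiponectin, was at 1.41, 1.27, 4.53 and 5.78 CPM in controls and 9.89, 16.4, 23.2 and 26.9 CPM in transgenic libraries (log2 fold change 2.56 ± 1.21, adjusted p = 0.9999, edgeR). Cidec and Plin1, which coat lipid droplets, were at 2.05, 2.36, 4.48 and 6.49 against 8.07, 16.98, 23.2 and 24.2 CPM and at 0.766, 0.227, 1.16 and 0.624 against 1.91, 3.91, 6.34 and 4.77 CPM. The summed level was 59.4, 65.7, 132.9 and 194.2 CPM in controls and 213.2, 317.5, 367.7 and 416.4 CPM in transgenic libraries, and replicate 1 was the lowest and replicate 4 the highest of its transgenic values, as for most of the 15 called genes. In untreated wall the sum of these adipocyte and mesothelial markers was 417.2 CPM in control replicate 2, about that of the highest DSS library (416.4 CPM). Untreated control replicate 2 held 107.3 CPM of Gclc, 29.2 CPM of Nqo1 and 0.171 CPM of Gsta2, each the highest value among the untreated controls. The other called genes were mixed. It was also the highest for Acox2, Abcc4, Cbr3, Il1f9 and Sprr2g, and the lowest for Gm10639 (0.257 CPM) and Adh7 (0.300 CPM). For Gsta1, Gm3776, H60c and Slc5a4b it lay between other controls, and it had no count of Serpinb11. The part of fat tissue in the differences with DSS was not tested.

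The same contrast without DSS used the 8 untreated wall libraries, none of which is in the DSS contrast. In untreated wall, 36 genes passed in edgeR, 0.224% of those tested, 22 higher and 14 lower. Of the 15 genes called with DSS, 6 were among them: Acox2, Gclc, Gm10639, Gm3776, Gsta2 and Il1f9, or 40.0% of the DSS calls and 16.7% of the untreated calls. All 15 were fitted above 0 in untreated wall, against 47.2% of all genes tested. Of the 36 untreated calls, 20 had the same sign with DSS, and these include the 6 genes called in both. That is close to an even split, and the share over all genes was not computed. Without the library labelled untreated transgenic replicate 2, 41 genes passed in untreated wall, 25 of them among the 36. For Gclc, untreated values were 86.8, 107.3, 69.8 and 75.8 CPM in controls and 734.8, 104.3, 693.5 and 381.1 CPM in transgenic libraries, so that this library alone sat with the controls. Nqo1 showed the same pattern, with 24.6, 29.2, 21.2 and 12.1 against 123.6, 21.4, 105.6 and 123.8 CPM and an untreated log2 fold change of 2.11 ± 0.49 that did not pass (adjusted p = 0.0985, edgeR). Of the 15, 7 had all untreated transgenic libraries above all untreated controls, against 3.79% of all genes tested.

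The difference between the transgene effects with and without DSS was tested as such, and 0 genes passed in edgeR (0.0%), with 1279 at an unadjusted p below 0.05 (7.96%) and a smallest adjusted p of 0.0685. DESeq2 called 40 genes for this difference and voom with quality weights 113. Among the 15 genes, Cbr3 alone had an unadjusted p below 0.05 for the difference (0.0162; adjusted p = 0.521, edgeR). Cbr3 was at 50.5, 63.8, 52.1 and 19.1 CPM in untreated controls and 226.2, 26.5, 180.1 and 178.6 CPM in untreated transgenic libraries, so its control level with DSS was below every untreated control. The fitted difference for Cbr3 was 2.19 ± 0.82 log2 units (95% interval 0.46 to 3.92). That interval is not adjusted for picking Cbr3 out of the 15 genes, and the difference did not pass. A larger effect on Cbr3 with DSS was therefore not shown. For Gclc the difference was 0.64 ± 0.59 (95% interval -0.62 to 1.89), for Nqo1 1.05 ± 0.68 (-0.38 to 2.49) and for Il1f9 -0.47 ± 0.81 (-2.19 to 1.25). These intervals leave room for effects that differ by more than 1 log2 unit, so the effects with and without DSS were not shown to be alike.

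Genes with the smallest p for the difference were not NRF2 targets from the lists. Rfx2, a transcription factor, was at 12.6, 9.38, 10.7 and 11.03 CPM in untreated controls and 2.88, 2.01, 2.39 and 4.14 CPM in untreated transgenic wall, and at 10.7, 7.95, 14.2 and 7.96 against 9.82, 16.2, 9.02 and 11.2 CPM with DSS (difference 2.12 ± 0.36, adjusted p = 0.0781, edgeR). Its groups were apart without DSS and overlapped with it. Vgll3, a transcription cofactor, had a difference of 1.56 ± 0.23 (adjusted p = 0.0685, edgeR), while Dapp1, a signalling adaptor, and Sstr1, a somatostatin receptor, had differences of -1.38 ± 0.22 and -1.54 ± 0.26. For all 4 the DSS groups overlapped, with log2 fold changes between -0.20 and 0.34. Slc34a2, lower in untreated transgenic wall (log2 fold change -2.26 ± 0.38, adjusted p = 0.0221, edgeR), had a difference of 0.95 ± 0.51 (95% interval -0.13 to 2.03), and Slc17a4, at 0.15 ± 0.22 without DSS, a difference of -1.26 ± 0.31 (adjusted p = 0.364, edgeR).

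**Figure D4:**
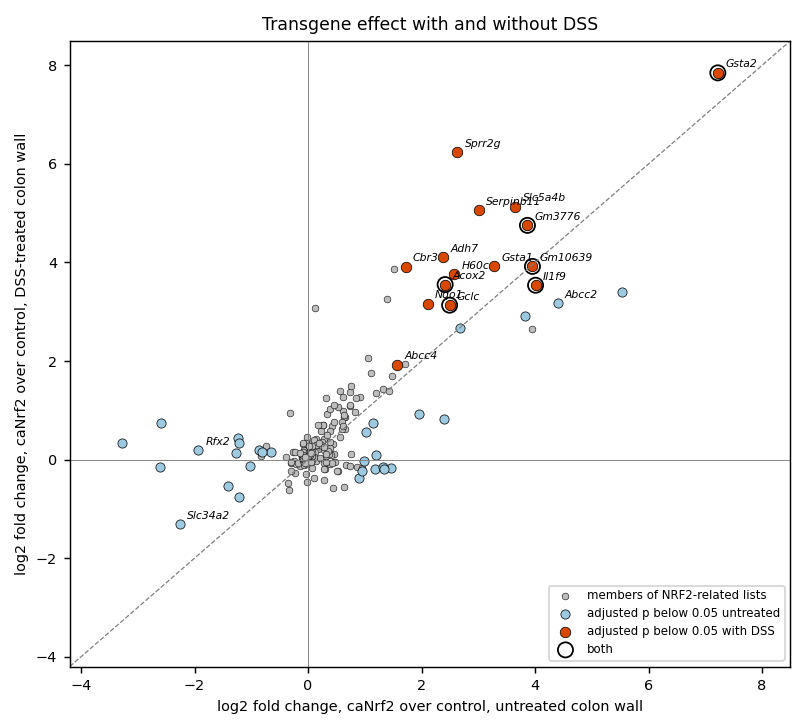
Log2 fold change, transgenic over control, in untreated (horizontal) and DSS-treated (vertical) colon wall for members of the NRF2-related lists and for genes past the threshold in either comparison; the dashed line marks equal values. The 15 genes called with DSS are all above 0 on both axes, and 6 of them, ringed, passed in both.

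In isolated epithelial cells, which were scaled apart from the wall and were not treated with DSS, 13 of the 15 genes had a higher mean in the transgenic group, against 47.4% of the 16074 genes (4 libraries a group; no test is given for these levels). Gclc was at 404.5 ± 252.7 CPM in transgenic cells against 111.9 ± 29.4 CPM in the control cells (SD), Abcc4 at 66.1 ± 23.8 CPM in transgenic cells against 18.2 ± 4.75 CPM in the control cells and Il1f9 at 4.89 ± 2.73 CPM in transgenic cells against 0.158 ± 0.180 CPM in the control cells. All transgenic epithelial libraries lay above all controls for 5 of the 15, namely Acox2, Gclc, Cbr3, Abcc4 and Il1f9, and for 2.29% of the 16074 genes. Gsta2 was listed at 0 in all 4 control epithelial libraries and had a mean of 3.09 CPM in the transgenic ones, the lowest of which was also at 0. Adh7 was at 0.297 ± 0.343 CPM in transgenic cells against 0.317 ± 0.249 CPM in the control cells. Serpinb11 had no count in any of the 8 epithelial libraries, which allows up to 0.0656 CPM over the 4 transgenic ones (3 counts of their summed total), against 0.415 to 0.755 CPM in the transgenic DSS wall. In untreated transgenic wall, which like these cells had no DSS, its mean was 0.0576 CPM, under that limit. The zeros therefore cannot tell the level in untreated cells from that in untreated wall.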

How the data were processed

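Messenger RNA of 24 mouse colon libraries was sequenced, and the 16 colon wall libraries were used for tests. Per the file headers, each deposited file gives an estimated count (expected count) and a TPM value for 30383 transcripts. The authors' expected counts, 39.2% of them not whole, were summed per gene symbol (23329) and rounded. The deposited TPM values were used only for levels between genes. The submitters' processing notes name RSEM 1.2.11, FastQC and mm10, without their roles. No source used here gives the aligner, strand setting or read filters. Libraries held 20232309 to 154336039 counts in wall.

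Groups were taken from the genotype and treatment labels. Genes were tested by quasi-likelihood F statistics of edgeR 4.0.16 (R 4.3.3) with TMM scaling, filterByExpr (16074 genes kept) and Benjamini-Hochberg adjustment, with 4 group means (common biological coefficient of variation 0.26). SE is the absolute log2 fold change over the root of F, and 95% intervals use 16.6 degrees of freedom. The steps were run on simulated counts with known changes added, in which no library stood apart over many genes. That run checks the code only. Replicate numbers were not used to pair libraries in the main fit, and no 2 libraries of a group were within sampling noise (lowest chi-square per gene 24). Alternatives were DESeq2 1.42.0, voom (limma 3.58.1), other scaling, filters and designs, and leaving out each library.

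The comparison and the 42 gene lists were chosen with earlier results of these data known. Genes were named by a rule: Nfe2l2, all called genes, the 12 lower genes of smallest p without overlap and with a mean of at least 1 CPM, up to 4 of smallest p per list, a fixed set of NRF2 targets and markers, and the 4 of smallest p for the difference. Genes on the lists without an entry in the files were not analysed here.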

Additional observations from a re-analysis of the deposited data

Results flagged for a closer look

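In 84 named genes and 10 marker lists, each of the 2 DSS groups of 4 libraries was searched for a highest or lowest library whose gap to the next was too large a part of the group's range by Dixon's 95% limit. This marked 18 of 188 groups. Chance marks about 1 in 20 where values are normally distributed, which was not tested for these CPM values, and genes of 1 library are not independent. Control replicate 1 stood apart for Gsta3 (12.5 CPM, next 1.34), 1810030J14Rik (1166, next 449.6), Pot1b (10.54), C030034I22Rik (1.84) and Ppargc1a, a coactivator of mitochondrial genes (76.8). Control replicate 2 had the only counts of its group for Serpinb11 (0.0454 CPM) and Sprr2g (0.0227 CPM). With the other controls at 0, any count there would be marked. Control replicate 2 also had the highest sum of absorptive colonocyte genes (16620 CPM, next 13130). Control replicate 3 was the lowest for Gsr (52.1 CPM, next 73.9) and the highest for red blood cell genes (11150 CPM, next 1414). Control replicate 4 was the highest for Il1b (112.9 CPM, next 18.9), Lcn2 (16.6, next 5.98) and Fosb (565.4, next 11.8).

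Transgenic replicate 1 was the highest of its group for Mki67 (181.6 CPM, next 34.3), Il1b (55.1, next 14.5), 2210407C18Rik (9.68, next 7.25) and the cell cycle list (984.1 CPM, next 356.7). Transgenic replicate 4 was the lowest for Hist1h2ac (1.31 CPM, next 1.68).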

How the results depend on the processing

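The count of genes past the threshold with DSS (15) was 43 with DESeq2, 0 with voom and quality weights, 0 with replicates 1 to 3 only and 26 without the untreated transgenic library 2 (chosen after seeing the data). It stayed between 11 and 20 with other scaling, filters, a robust fit, a term for the leading number of the file name or the 2 DSS groups alone. With the 2 DSS groups alone, 20 genes passed, of which 19 were higher. With the replicate block the count with DSS was 0. Same-number correlations were -0.10, 0.29, -0.19 and -0.14 with DSS and -0.06, -0.17, -0.02 and 0.18 untreated. For DSS replicate 2 and untreated replicate 4 the control of the same number was the best match. These few correlations cannot settle whether the numbers pair libraries. Leaving out 1 library gave 0 to 36. Without DSS the count (36) was 235 with DESeq2, 2491 with voom, 10 with these groups only, 19 with the term, 404 with replicates 1 to 3, 7 with the replicate block and 5 to 320 without 1 library. For the difference (0) it was 40 with DESeq2, 113 with voom, 98 with replicates 1 to 3 only and 0 to 93 without 1 library (93 without untreated control replicate 4, 2 without untreated transgenic replicate 4), and 0 with the replicate block. The cause of these shifts was not tested.

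Of 283 values of the 15 genes under alternatives, 134 stayed past the threshold and 149 did not, and 0 changed sign. The 15 were called from these same libraries and had groups that did not overlap. A change of sign was therefore hardly possible, and its absence adds no support. Of 69 other named genes, 10 changed sign under 1 or more. Mki67 (0.07) was -0.084 with voom, -0.10 with the term, -0.18 with the replicate block and -1.34 to 0.90 without 1 library. Il1b (-0.74) was 0.19 with the term, 1.14 with replicates 1 to 3 and -1.72 to 0.92 without 1 library. Fosb (-2.25) was 1.46 with replicates 1 to 3 and -2.66 to 1.74 without 1 library. S100a9 (-0.011) was 0.15 with voom, 0.0059 without a filter, 0.023 with the DSS groups only, 0.24 with replicates 1 to 3 and -0.33 to 0.23 without 1 library. Nos2 (-0.14) was 0.20 with replicates 1 to 3 and -0.39 to 0.27 without 1 library. Tnf (0.13) was -0.095 with voom and -0.0024 to 0.33 without 1 library. Without 1 library, Lgr5 (0.076) ran from -0.13 to 0.29, Ascl2 (0.61) from -0.094 to 0.89, Epcam (-0.095) from -0.21 to 0.052 and Rfx2 (0.18) from -0.020 to 0.38.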

Other observations

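Other pathways measured in the DSS-treated wall had no gene past the threshold in edgeR and none without overlap. The 15 circadian clock genes had a median log2 fold change of -0.06, and the 18 unfolded protein and ATF4 response genes one of -0.01. For 21 genes of fatty acid oxidation and PPAR targets the median was 0.04, for 18 of cholesterol and fatty acid synthesis -0.07, and for 21 immediate early and heat shock genes -0.44, with 6 fitted above 0. Secretory epithelium gave medians of -0.07 for 12 goblet cell genes, -0.07 for 12 enteroendocrine genes and -0.27 for 7 tuft cell genes, of which 0 were fitted above 0. Among 19 epithelial oxidases and antimicrobial genes 5 were fitted above 0 (median -0.14), and among 15 enteric neuron and glia markers 7 (median -0.09).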
